A study of Homo sapiens with 4 samples.

Results

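The genes of the kinetochore, the centromere and the spindle checkpoint were examined in KYSE410 cells, an established line of human esophageal squamous cell carcinoma, after YM155. The set was given as a list of 42 genes, and a gene was read from every probe set annotated with its symbol alone. Of the 42, 41 had such a probe set, 77 probe sets in all, and CENPP had none. Each of the 41 had at least 1 probe set past the filter on low values, so none was lost to it, and they were tested among 14043 genes. The groups were cells treated with 20 nM YM155 for 6 h (2 arrays) and untreated KYSE410 cells (2 arrays), all grown in serum-containing RPMI and all of 1 cell line. YM155, a small imidazolium compound, is known for lowering survivin, the product of BIRC5. Titles, sources and treatment labels name YM155 and were followed, although a protocol text names cisplatin. The labels do not tie the arrays to separate cultures, so p-values reflect only how far these arrays spread, possibly for technical reasons.

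The kinetochore is the protein assembly that ties a chromosome to spindle microtubules in mitosis. Its inner layer is built on nucleosomes that hold the histone variant CENP-A, which the chaperone HJURP and the MIS18 complex place at the centromere. Its outer layer, made of the KNL1, MIS12 and NDC80 complexes, grips the microtubules. Unattached kinetochores recruit the BUB and MAD proteins and the kinase TTK, which hold back anaphase. Many of these genes are transcribed mainly in G2 and M phase of dividing cells.

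Untreated replicate 2 stood apart from the other 3 arrays, and this touches every value below. Over the 41 genes, the median absolute difference between 2 arrays was 0.14 log2 within YM155 and 0.35 within untreated. Untreated replicate 1 lay nearer to the YM155 arrays (0.23 and 0.30) than to untreated replicate 2, which lay 0.43 and 0.51 from the YM155 arrays. Of 32768 probe sets, 739 and 850 were at least 2-fold apart between the YM155 arrays and untreated replicate 1, and 1690 within untreated. The untreated arrays were thus farther apart than untreated replicate 1 was from either YM155 array. Untreated replicate 2 was higher than untreated replicate 1 for 22 of the 41 genes (44.9% of all genes), but for 5 of 6 checkpoint genes, by a median of 0.61. YM155 replicate 2 was higher than YM155 replicate 1 for only 11 of 41 (49.4% of all genes), with a median of −0.095. The log2 3' minus 5' signal of ACTB, a measure of RNA integrity and labelling, was 2.10 and 2.95 on YM155 arrays and 2.72 and 2.18 on untreated arrays, which overlap. For GAPDH it was 0.033 and 0.21 on YM155 arrays and 0.042 and 0.043 on untreated arrays. YM155 replicate 2 thus had the highest value for both genes, and the part of this in the results was not tested. Of 8 squamous markers 6 had a probe set of a single symbol, of which KRT5, KRT14, DSG3 and SFN were higher without overlap, and SOX2 (−0.25) and PKP1 (0.012) overlapped. The 6 summed to intensities of 12520 and 12855 on YM155 arrays and 7630 and 9447 on untreated arrays, most of it from SFN (9079 and 9374 on YM155 arrays, 4863 and 6860 on untreated arrays); their part in the results was not tested. Leukocyte markers stayed at or below 3.78 log2, endothelial ones at or below 4.29 and glandular ones at or below 4.04, near the filter's limit of 3.32. Of 7 fibroblast markers 4 passed the filter, the brightest being COL1A1 at 6.16.

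Most of these genes had lower signal after YM155, by amounts that limma on all 4 arrays, adjusted over all genes, did not call. Of 41 genes, 30 had a negative log2 difference (YM155 minus untreated) and 11 a positive one; of all genes tested, 52.9% were negative. Their median difference was −0.27 log2, against −0.015 for all genes. By limma with Benjamini-Hochberg adjustment, 0 of 41 were called lower and 0 higher at an adjusted p under 0.05 (all genes: 0% in each direction), and their adjusted p ran from 0.163 to 0.997. At an unadjusted p under 0.05, 11 stood lower, against 7.48% of all genes, and 1 higher, against 5.23%. A difference of at least 2-fold was seen in 3 genes, HJURP, NDC80 and MAD2L1, all lower (1.15% of all genes). The 11 were CENPA, CENPL, OIP5, NDC80, NUF2, SPC24, KNL1, CENPE, CENPF, BUB1B and TTK, and the 1 was MIS12. That count of 11 rose without untreated replicate 1 and fell without either YM155 array. It was 7 of 41 when a gene's probe sets were averaged, and 7 of 36 when probe sets with the _x_at or _s_at suffix were dropped. The shares of all genes under these alternatives are not given, so the moved counts are not read as results about the 41 genes. Both YM155 arrays lay below both untreated arrays for 21 genes (25.6% of all genes) and above them for 4 (19.3% of all genes), and the arrays of 16 overlapped. In a bulk RNA sample, fewer cells in G2 and M phase and less RNA of these genes per cell cannot be told apart.

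**Figure D1:**
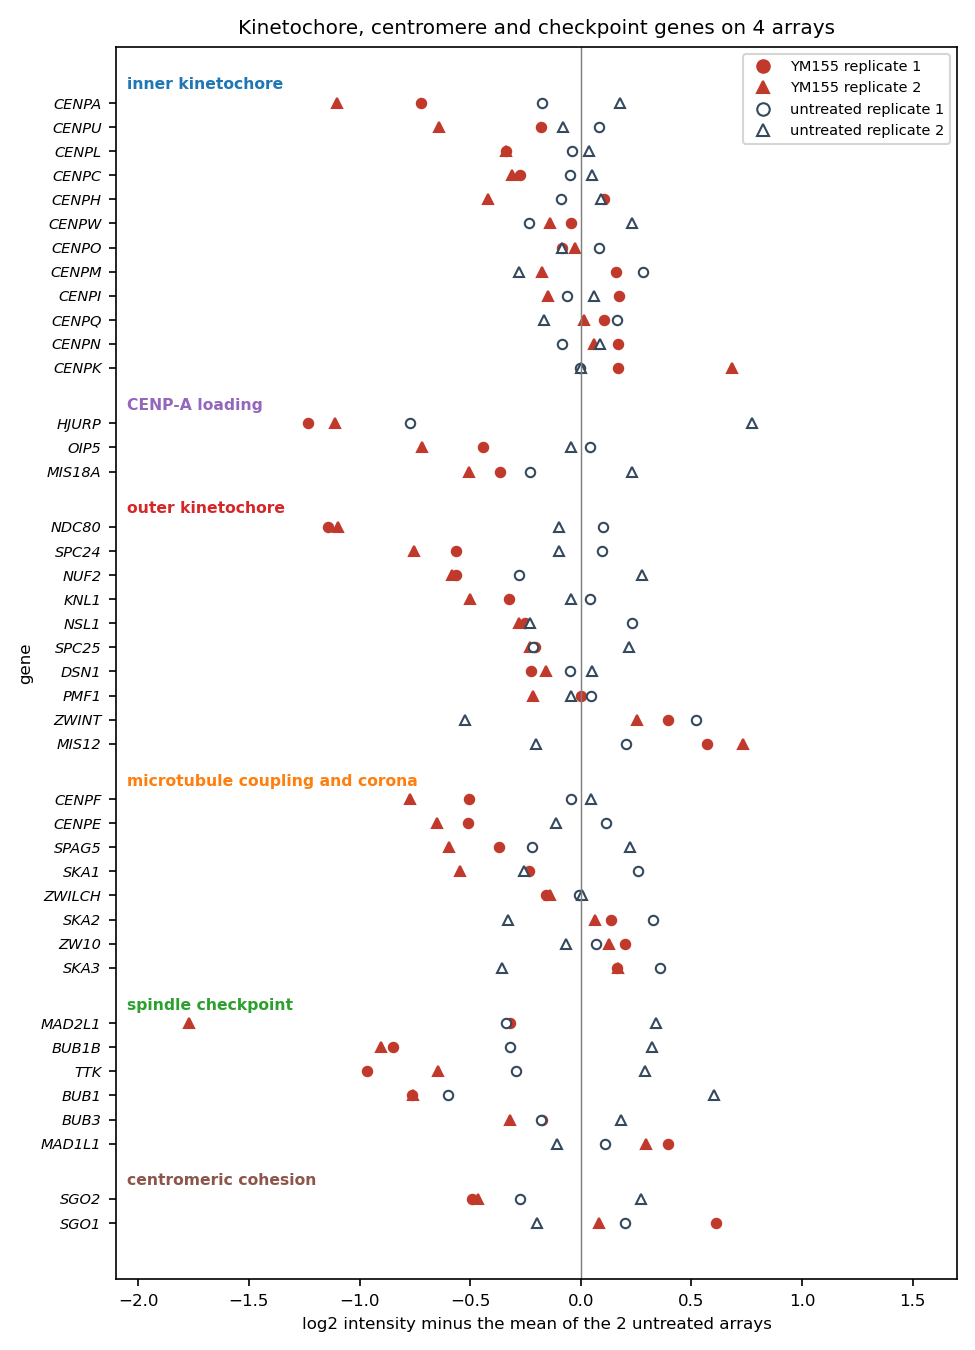
Each row is 1 of 41 genes and each mark 1 array; the x axis is the log2 intensity minus the mean of the 2 untreated arrays, with YM155 filled and untreated open. NDC80 stands near −1.1 on both YM155 arrays, whereas HJURP and BUB1 have untreated arrays far apart and MAD2L1 has YM155 arrays far apart.

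Set against each untreated array on its own, the YM155 mean was below untreated replicate 1 for 33 of 41 genes (58.2% of all genes) and below untreated replicate 2 for 29 (49% of all genes). The median difference was −0.21 for the first and −0.33 for the second of these comparisons. The YM155 mean was at least 0.5 log2 below untreated replicate 1 for 10 genes (8.29% of all genes) and at least 0.5 below untreated replicate 2 for 14 (9.93% of all genes). It was at least 0.5 below each of them for 8, or 19.5% of the 41, against 3.34% of all genes. These 8 were CENPA, OIP5, NDC80, SPC24, CENPF, BUB1B, TTK and MAD2L1, of which MAD2L1 rested on 1 YM155 array, as given below.

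**Figure D2:**
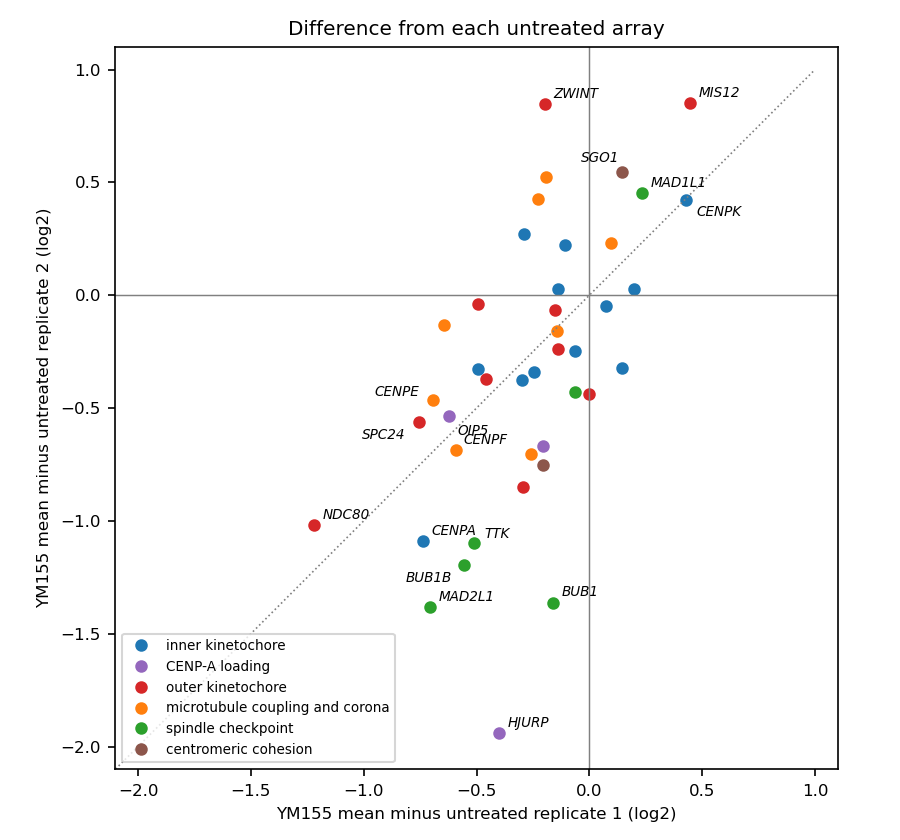
Each point is 1 of 41 genes, coloured by role; the x axis is the YM155 mean minus untreated replicate 1 and the y axis the YM155 mean minus untreated replicate 2, both in log2, with equal differences on the dotted line. NDC80, CENPF, SPC24, CENPE and OIP5 lie near that line, HJURP and BUB1 far below it, and ZWINT far above it.

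Promoters of the listed genes were described without a test. The shares over all listed genes are computed without the array values, so they say nothing about YM155. The cell cycle genes homology region (CHR) is a short element near the start of many mitotic genes, to which the DREAM and MuvB complexes bind, and the CCAAT box is bound by NF-Y. RefSeq windows (GRCh38.p14) of 250 bases before to 50 after a gene's start were found for 35 of the 42 genes, some with several starts. A CHR, searched as TTTGAA or TTCGAA on either strand, was present in 20 of 35 genes (57.1%), against 19.5% of 27305 genes in the table. A CCAAT box was present in 23 (65.7%, against 39.7%), and the E2F letters TTCCCGC in 7 (20.0%, against 7.82%). Within 40 bases of the start, a range chosen after the positions were seen, 15 of 35 genes (42.9%) held a CHR, against 5.01% of all genes. Among the genes lower at an unadjusted p under 0.05, 6 of 8 with a window held a CHR, and among the other tested genes 14 of 26 did. A CCAAT box went the other way, with 4 of 8 and 18 of 26. The E2F letters were in 2 of 8 and 5 of 26. The stretches shown run from 120 bases before to 30 after the start, 5′ to 3′ in the direction of the gene, for the 4 genes of largest absolute difference whose window held a CHR. MIS12, added after its values were seen, is the gene that stood highest, and no CHR letters lie in its windows. The genes shown were thus picked by motif or by value, so their contrast is not a result. SPC24 and CENPE, among the lower genes, held no CHR. ZWINT, SGO1, SKA3, CENPN and ZW10 had positive differences and held one, while CENPK, SKA2 and others with positive differences held none. Capitals mark CHR and CCAAT letters on either strand.
HJURP, chr2:233854506-233854655, strand minus: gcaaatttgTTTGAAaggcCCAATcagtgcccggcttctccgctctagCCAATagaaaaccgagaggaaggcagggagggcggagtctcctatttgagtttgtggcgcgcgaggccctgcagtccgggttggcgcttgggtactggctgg
NDC80, chr18:2571437-2571586, strand plus: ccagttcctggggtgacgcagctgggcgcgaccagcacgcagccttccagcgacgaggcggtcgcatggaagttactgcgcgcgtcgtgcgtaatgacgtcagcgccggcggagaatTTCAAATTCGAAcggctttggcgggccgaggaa
MAD2L1, chr4:120066819-120066968, strand minus: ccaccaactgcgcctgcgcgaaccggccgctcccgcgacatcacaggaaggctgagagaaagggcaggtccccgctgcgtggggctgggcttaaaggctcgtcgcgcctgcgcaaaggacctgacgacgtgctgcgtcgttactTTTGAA
CENPA, chr2:26785936-26786085, strand plus: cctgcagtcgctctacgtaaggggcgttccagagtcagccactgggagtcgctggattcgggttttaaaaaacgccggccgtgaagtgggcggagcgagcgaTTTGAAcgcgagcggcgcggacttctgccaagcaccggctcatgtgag
MIS12, chr17:5486254-5486403, strand plus: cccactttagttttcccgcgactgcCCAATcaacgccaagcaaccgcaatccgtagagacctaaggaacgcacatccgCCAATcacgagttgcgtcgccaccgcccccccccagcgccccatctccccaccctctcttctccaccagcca
NDC80 has a reverse CHR from position −3 to 3 directly followed by one from 4 to 9, CENPA has one from −18 to −13, and MAD2L1 one from 25 to 30 (the start is 1 and the base before it −1). That of HJURP lies farther upstream, from −111 to −106, next to CCAAT letters. A match of letters is a description and not a shown binding site.

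**Figure D3:**
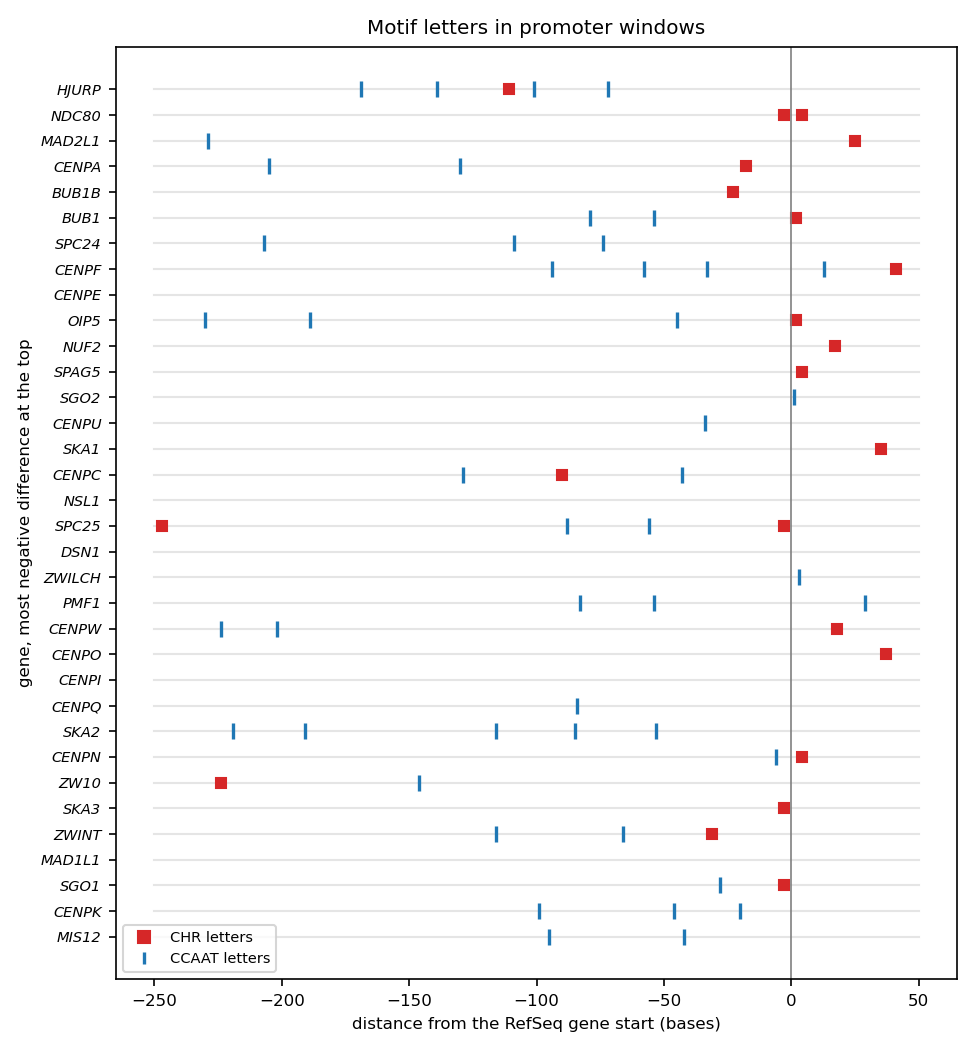
Rows are the genes with both a test and a RefSeq promoter window, ordered from the most negative difference at the top; the x axis is the distance from the gene start in bases, squares are CHR letters and bars CCAAT letters, in the window of lowest coordinate where a gene has several. CHR letters gather within 40 bases of the start, in genes near the top such as NDC80 and CENPA and also in genes with little difference, such as CENPW.

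In the inner kinetochore, CENPA had the largest difference, and most genes of the network built on it differed little. CENPA, the centromeric histone, was at 8.16 and 7.78 log2 on YM155 arrays and 8.71 and 9.06 on untreated arrays (difference −0.91 ± 0.21, SE; limma adjusted p = 0.242). Both YM155 arrays were low and the groups did not overlap. The only probe set of CENPA has the _x_at suffix, so CENPA dropped out when suffixed probe sets were left out. CENPC, which links CENP-A nucleosomes to the outer layer, was at 5.71 and 5.68 on YM155 arrays and 5.94 and 6.04 on untreated arrays (−0.29 ± 0.13, limma adjusted p = 0.436). CENPL, of the pair that reads CENP-A together with CENPN, was at 6.82 on both YM155 arrays and at 7.12 and 7.20 on untreated arrays (−0.34 ± 0.12, limma adjusted p = 0.375). Its 2 YM155 values were identical as deposited, as they were at 1.38% of all probe sets, and its second probe set gave −0.10. CENPU, a docking site of the kinase PLK1, was at 9.40 and 8.94 on YM155 arrays and 9.67 and 9.50 on untreated arrays (−0.41 ± 0.20, limma adjusted p = 0.490). Without YM155 replicate 2 CENPU gave −0.18 and without YM155 replicate 1 −0.64, and its other 2 probe sets gave −0.25 and −0.14 with overlapping arrays. In the brightest probe sets the groups did not overlap for CENPC, CENPL and CENPU, with smaller differences than for CENPA. Whichever array was left out, CENPA stayed between −1.10 and −0.72.

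The other members of the constitutive network overlapped between the groups or stood higher. In their brightest probe sets, CENPH, CENPI, CENPM, CENPN, CENPO, CENPQ and CENPW had differences between −0.16 and 0.11, and their arrays overlapped. CENPK, a partner of CENPH and CENPI, was the only inner kinetochore gene whose brightest probe set stood higher without overlap. It was at 7.48 and 7.99 on YM155 arrays and 7.31 and 7.31 on untreated arrays (0.43 ± 0.21, limma adjusted p = 0.490). Most of that difference lay in YM155 replicate 2, and leaving out single arrays gave values between 0.17 and 0.68. The 3 probe sets of CENPN past the filter were all positive, from 0.11 to 0.57. That of 0.57 was also higher without overlap, at 8.45 and 8.46 on YM155 arrays and 8.18 and 7.58 on untreated arrays. Over the 12 inner genes tested, 8 were negative with a median of −0.073, and the YM155 arrays stood at a median of 0.030 and −0.16 from the untreated mean. The sign of that median turned without YM155 replicate 2 (0.030), and it reached −0.16 without YM155 replicate 1.

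In their brightest probe sets, the 3 genes that load CENP-A were all lower on both YM155 arrays than on both untreated arrays. HJURP, the CENP-A chaperone, was at 7.60 and 7.72 log2 on YM155 arrays and 8.06 and 9.60 on untreated arrays (−1.17 ± 0.52, limma adjusted p = 0.449). It had the largest difference of the 41 genes, but the size came mainly from untreated replicate 2: against untreated replicate 1 alone the difference was −0.40, and against untreated replicate 2 alone −1.94. OIP5, a subunit of the MIS18 complex, was at 8.71 and 8.43 on YM155 arrays and 9.19 and 9.11 on untreated arrays (−0.58 ± 0.15, limma adjusted p = 0.275). Here both untreated arrays gave nearly the same value. MIS18A, of the same complex, was at 8.39 and 8.25 on YM155 arrays and 8.53 and 8.99 on untreated arrays (−0.44 ± 0.20, limma adjusted p = 0.459). Its 3 probe sets gave −0.44, −0.43 and −0.35, the last with overlapping arrays. The brightest gave −0.21 without untreated replicate 2 and −0.67 without untreated replicate 1.

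In the outer kinetochore, 3 genes of the NDC80 complex stood lower and MIS12 higher. NDC80, the microtubule-binding subunit, was at 7.72 and 7.76 log2 on YM155 arrays and 8.96 and 8.76 on untreated arrays. On the intensity scale these are 211 and 217 on YM155 arrays against 498 and 433 on untreated arrays. The difference was −1.12 ± 0.14 (SE; limma adjusted p = 0.163), a YM155 level of 0.46 of the untreated one. This adjusted p was the smallest among the 41 genes and one that 77 of all genes tested shared as their lowest. The size was alike with either untreated array, −1.22 against replicate 1 alone and −1.02 against replicate 2 alone. NUF2, its microtubule-binding partner, was at 8.40 and 8.38 on YM155 arrays and 8.69 and 9.24 on untreated arrays (−0.57 ± 0.22, limma adjusted p = 0.392), and gave −0.30 without untreated replicate 2. SPC24, of the pair that anchors the complex, was at 6.52 and 6.33 on YM155 arrays and 7.18 and 6.98 on untreated arrays (−0.66 ± 0.15, limma adjusted p = 0.242). In the brightest probe sets the groups did not overlap for any of these 3 genes. A second, dimmer probe set of SPC24 was higher without overlap (0.24), at 4.42 and 4.59 on YM155 arrays and 4.13 and 4.39 on untreated arrays. Averaged over both probe sets, SPC24 gave −0.21. SPC25, its partner, was at 7.44 and 7.42 on YM155 arrays and 7.43 and 7.87 on untreated arrays, which overlap.

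MIS12, which connects the inner layer to the NDC80 complex, was the gene that stood highest of the 41. It was at 8.61 and 8.77 log2 on YM155 arrays and 8.24 and 7.84 on untreated arrays (0.65 ± 0.19, limma adjusted p = 0.302), a YM155 level of 1.57 times the untreated one. The only probe set of MIS12 has the _s_at suffix, so MIS12 dropped out when suffixed probe sets were left out. With any 1 array left out its difference lay between 0.45 and 0.85. The other subunits of its complex did not share this: NSL1, DSN1 and PMF1 had differences of −0.27, −0.19 and −0.11. The 4 probe sets of NSL1 were all negative, but the brightest gave −0.037 without untreated replicate 1. KNL1, the scaffold that recruits the BUB proteins, was at 7.38 and 7.20 on YM155 arrays and 7.75 and 7.66 on untreated arrays (−0.41 ± 0.14, limma adjusted p = 0.344), and its 3 probe sets past the filter ran from −0.66 to −0.41. ZWINT, a partner of KNL1, had no settled direction. It was at 10.26 and 10.11 on YM155 arrays, between 10.38 and 9.34 on the untreated arrays, and its difference of 0.32 ± 0.36 (limma adjusted p = 0.768) was −0.20 against untreated replicate 1 alone and 0.85 against untreated replicate 2 alone. Over the 10 outer genes, 8 were negative, with a median of −0.24.

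Among the genes of the fibrous corona and of microtubule coupling, CENPF, CENPE and SPAG5 were the lower ones. CENPF, a large microtubule-binding protein, was at 11.01 and 10.74 log2 on YM155 arrays and 11.47 and 11.56 on untreated arrays (−0.64 ± 0.15, limma adjusted p = 0.248). Its 2 dimmer probe sets gave −0.20 and −0.067 with overlapping arrays. CENPE, the kinesin that carries chromosomes to the spindle equator, was at 7.90 and 7.75 on YM155 arrays and 8.52 and 8.29 on untreated arrays (−0.58 ± 0.15, limma adjusted p = 0.270). SPAG5, the spindle protein astrin, was at 8.06 and 7.83 on YM155 arrays and 8.21 and 8.65 on untreated arrays (−0.48 ± 0.20, limma adjusted p = 0.432), and gave −0.26 without untreated replicate 2. In their brightest probe sets the groups did not overlap for any of the 3. The SKA complex, which helps the NDC80 complex to track microtubule ends, gave mixed signs: SKA1 had −0.39, SKA2 0.10 and SKA3 0.17, each with overlapping arrays. Against untreated replicate 1 alone SKA2 and SKA3 gave −0.23 and −0.19, and SKA1 gave −0.13 without that array. A second probe set of SKA2 was higher without overlap, at 8.09 and 7.98 on YM155 arrays and 7.84 and 7.81 on untreated arrays (0.21). ZWILCH and ZW10, of the complex that brings dynein and the MAD proteins to the corona, had small differences of −0.15 and 0.16. In each case the brightest probe set did not overlap, but a second probe set of ZWILCH gave −0.25 with overlapping arrays.

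Among checkpoint genes BUB1B, TTK and BUB1 stood lower without overlap and MAD1L1 higher. BUB1B, the kinase-like inhibitor BubR1, was at 8.63 and 8.57 log2 on YM155 arrays and 9.16 and 9.80 on untreated arrays (−0.88 ± 0.24, limma adjusted p = 0.290). TTK, the kinase MPS1 that starts checkpoint signalling, was at 8.21 and 8.53 on YM155 arrays and 8.88 and 9.47 on untreated arrays (−0.80 ± 0.25, limma adjusted p = 0.322). The YM155 mean of both genes lay at least 0.5 below each untreated array; without untreated replicate 2 BUB1B gave −0.55 and TTK −0.51. BUB1, the kinase that marks centromeric chromatin, was at 7.82 and 7.83 on YM155 arrays and 7.99 and 9.19 on untreated arrays (−0.76 ± 0.41, limma adjusted p = 0.524). Its groups did not overlap, but the difference was −0.16 with replicate 1 as the only untreated array and −1.36 with replicate 2.

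MAD2L1, the MAD2 protein that inhibits the anaphase-promoting complex, was at 8.62 and 7.17 log2 on YM155 arrays and 8.60 and 9.28 on untreated arrays (−1.04 ± 0.54, limma adjusted p = 0.508). The low value belonged to YM155 replicate 2 alone, the groups overlapped, and the difference was −0.32 without that array. Its other 2 probe sets gave −0.12 and 0.023. BUB3, which carries BUB1 and BubR1 to KNL1, was at 10.94 and 10.80 on YM155 arrays and 10.93 and 11.30 on untreated arrays (−0.25 ± 0.18, limma adjusted p = 0.633). Its arrays overlapped in this brightest probe set, which has the _x_at suffix. Its other bright probe sets gave 0.11 and 0.30 with overlapping arrays and 0.30 higher without overlap. A dim probe set past the filter gave −0.13, so the direction of BUB3 depended on the probe set. MAD1L1, the MAD1 platform that activates MAD2, was at 7.44 and 7.34 on YM155 arrays and 7.16 and 6.94 on untreated arrays, higher without overlap (0.34 ± 0.14, limma adjusted p = 0.430). Over the 6 checkpoint genes, 5 were negative with a median of −0.78, where BUB3 was counted from its brightest probe set. That median was −0.46 when probe sets were averaged, −0.34 without untreated replicate 2 and −1.15 without untreated replicate 1.

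**Figure D4:**
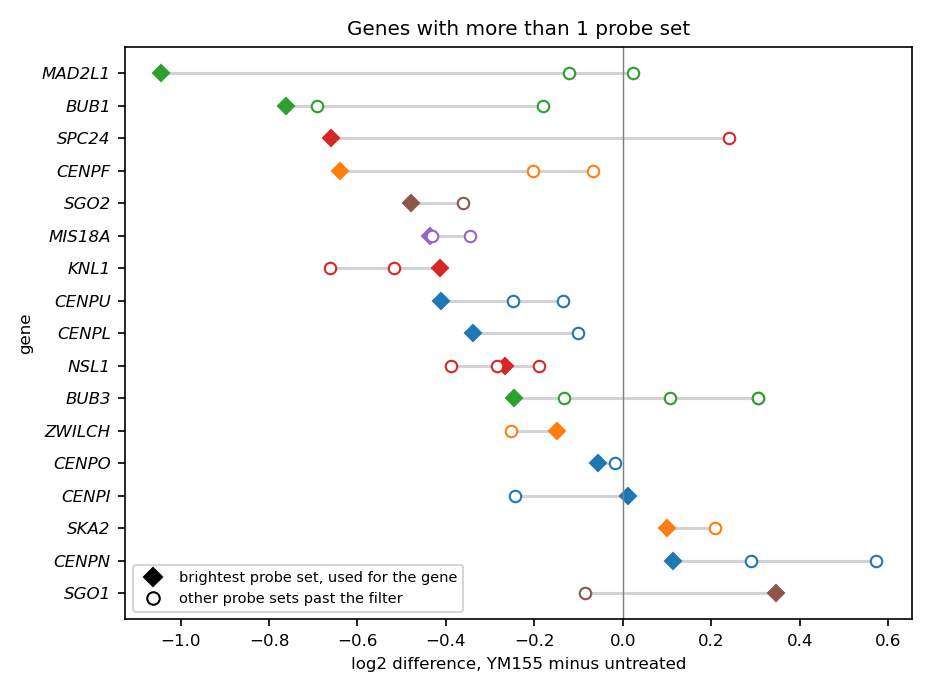
Rows are the 17 genes with more than 1 probe set past the filter; the x axis is the log2 difference, YM155 minus untreated, with the brightest probe set as a filled diamond and the others as open circles, coloured by role as in the plot against each untreated array. KNL1, MIS18A, NSL1 and SGO2 have all probe sets on the negative side, whereas those of MAD2L1, SPC24, BUB3 and SGO1 fall on both sides of 0.

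The shugoshins protect centromeric cohesion until anaphase. SGO2 was at 8.29 and 8.32 log2 on YM155 arrays and 8.51 and 9.06 on untreated arrays (−0.48 ± 0.22, limma adjusted p = 0.457), without overlap, and its second probe set gave −0.36. Without untreated replicate 2 the difference was −0.20, and without untreated replicate 1 −0.75. SGO1 was dim, at 4.26 and 3.74 on YM155 arrays and 3.85 and 3.45 on untreated arrays, which overlap. Its difference was 0.35 ± 0.25 (limma adjusted p = 0.633) and −0.085 in its other probe set, so no direction was settled.

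Set side by side, the medians of inner kinetochore, outer kinetochore and checkpoint genes were −0.073, −0.24 and −0.78, and the differences between these groups of genes were not tested. Both YM155 arrays lay below both untreated arrays for 4 of 12 inner, 3 of 3 CENP-A loading, 6 of 10 outer, 4 of 8 coupling and corona and 3 of 6 checkpoint genes, against 25.6% of all genes. The inner kinetochore share, 33.3%, was near that background. Relative to the untreated mean, the checkpoint median was −0.54 and −0.70 on YM155 arrays and −0.31 and 0.31 on untreated arrays. The outer kinetochore median was −0.24 and −0.26 on YM155 arrays and 0.071 and −0.071 on untreated arrays. Of these 2 groups, the checkpoint genes had the lower YM155 medians but untreated arrays farther apart, and the outer kinetochore genes smaller differences with closer arrays. Without untreated replicate 1, limma called 6 of the 41 genes lower (3.71% of all genes) and 2 higher (4.3% of all genes). The 6 were HJURP, NDC80, NUF2, BUB1, BUB1B and SGO2, with adjusted p between 0.0407 and 0.0480, and the 2 were MIS12 and ZWINT, with adjusted p of 0.0499 and 0.0492. That fit takes the spread of the 2 YM155 arrays for the single untreated one. Without any other single array, 0 were called.

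Related genes outside the 42 were read from lists. Of 15 other kinetochore and checkpoint genes 13 were tested, 11 with a negative difference, with a median of −0.40, and 4 at an unadjusted p under 0.05, all lower (30.8%, against 7.48% of all genes). These 4 were KIF2C, KIF18A, KNSTRN and MAD2L1BP (−0.55 ± 0.15), a MAD2-binding protein named after its values were seen. KIF2C and KIF18A, kinesins that act on microtubule ends at the kinetochore, had differences of −0.87 ± 0.29 and −0.85 ± 0.13. KNSTRN, a partner of astrin, had −0.80 ± 0.16. PLK1, a mitotic kinase not among the 4, had −0.63 ± 0.29. Against untreated replicate 1 alone KIF2C gave −0.46 and PLK1 −0.22. Of the 4 genes of the chromosomal passenger complex, which corrects faulty attachments, AURKB had −0.66 ± 0.20, CDCA8 −0.48 ± 0.21, BIRC5 −0.26 ± 0.18 and INCENP 0.095 ± 0.13. Against untreated replicate 1 alone CDCA8 gave −0.22 and BIRC5 −0.061. DNA replication genes, active in S phase, lay nearer to all genes: of 38, 23 were negative (60.5%, against 52.9% of all genes) with a median of −0.049, and 2 were lower at an unadjusted p under 0.05 (5.26%, against 7.48%). These were RFC4 (−0.63 ± 0.14) and RFC1 (−0.60 ± 0.16), of clamp loading, and MCM10, a replication initiation factor, had the largest positive difference (0.59 ± 0.32). None of these genes had a limma adjusted p under 0.05.

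**Figure D5:**
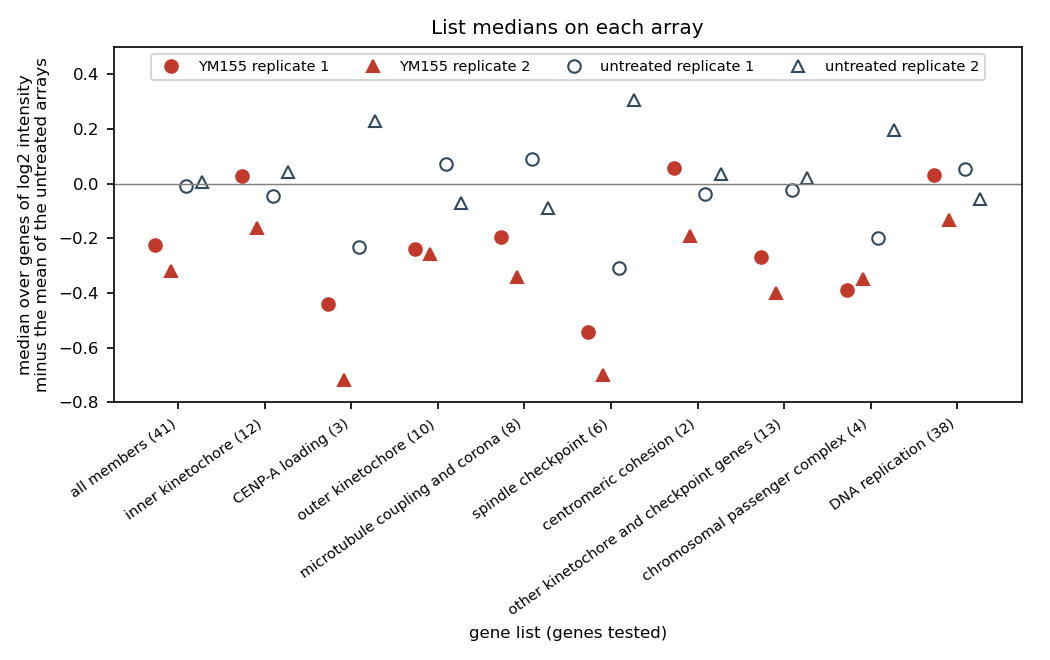
For each gene list on the x axis (genes tested in brackets), the marks give the median over its genes of log2 intensity minus the untreated mean, 1 mark per array, with YM155 filled and untreated open. Both YM155 arrays lie below both untreated arrays for outer kinetochore, coupling and corona, CENP-A loading, checkpoint, passenger complex and other kinetochore genes, but not for inner kinetochore, cohesion or DNA replication genes.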

How the data were processed

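The authors' deposited values are linear intensities, 1 for each probe set and array, from 2.42 to 15214. Per the submitters' processing notes they come from RMA, for which no version or setting was given, and log2 was taken here. Since RMA brings arrays to a common distribution, a shift shared by most genes would not be seen. The number of arrays limits the precision. Of 54675 probe sets, 62 controls were left out, and 41091 carried 1 gene symbol in the platform annotation. Probe sets whose mean log2 lay under the 40th percentile (3.32) were dropped, and the brightest remaining probe set stood for its gene. YM155 was compared with untreated by limma 3.58.1 in R 4.3.3, with group as the only term, two-sided, and with Benjamini-Hochberg adjustment over 14043 genes at a threshold of 0.05. With 2 against 2 arrays, the smallest p of an exact permutation test is 0.333, so none was used.

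In a simulation of this comparison with 14043 independent genes, 6 of the 100 genes shifted by 1 log2 were recovered, as were 81 of the 100 shifted by 2 log2, and 6 unshifted genes were called. The genes and lists were chosen with earlier results of these data known, so no list was tested. By rule, values of every array were given for the 12 largest differences, the 3 largest in each role, genes whose probe sets disagreed in sign and genes over 0.2 log2 higher, with up to 4 genes from each related list. Array values of CENPC, CENPL, NUF2, SPC25 and KNL1, all with negative differences, were given outside this rule. So were those of a second probe set of CENPN and of SKA2, both positive. Promoter sequences are from RefSeq, GRCh38.p14.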

Additional observations from a re-analysis of the deposited data

How the results depend on the processing

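The alternatives were other filters on low values (none, or the 60th percentile), averaged probe sets, leaving out probe sets with suffixes _x_at and _s_at, quantile normalization on top of RMA, median centring, eBayes with trend and robust, a replicate block and the omission of single arrays. The counts of 0 genes and 0 members called held under all of them except without untreated replicate 1: with single arrays omitted, calls lay between 0 and 1125 genes and between 0 and 8 members. Tested one by one, 0 of 77 member probe sets were called, also with single arrays omitted (0 to 0) and with the replicate block. Whether the replicate numbers pair the arrays was not established. Deviations of the replicate 1 arrays correlated at 0.00036 over genes. So few arrays in each group cannot show whether arrays of the same number shared a culture. With the replicate block 0 members were called and 9, in place of 11, were lower at an unadjusted p under 0.05. The share of all genes in that fit is not given. The median member difference was −0.20 without the suffixed probe sets and lay between −0.33 and −0.21 with single arrays omitted. The outer kinetochore median was −0.21 with averaged probe sets and −0.32 without suffixed ones, and lay between −0.30 and −0.24 with single arrays omitted. The inner kinetochore median lay between −0.16 and 0.030 and the checkpoint median between −1.15 and −0.34 with single arrays omitted; the cause was not tested. The count of 30 negative members lay between 28 and 33. That of 21 lower without overlap was 16 of 36 members without suffixed probe sets. It was 29 of 41 without untreated replicate 2, where both YM155 arrays need lie below 1 array only, as they did for 6662 of 14043 genes. Trying the alternatives on these counts was decided after the data were seen. Of 484 values of single members, 469 kept their sign and 15, in 10 members, changed it, 0 of them called. With averaged probe sets CENPI was −0.12 and BUB3 0.067, without suffixed probe sets CENPI was −0.24, and after quantile normalization CENPM was 0.0079. With single arrays omitted, CENPH lay between −0.42 and 0.11, CENPI between −0.15 and 0.17, CENPM between −0.29 and 0.27, CENPO between −0.14 and 0.028, CENPQ between −0.11 and 0.22, CENPW between −0.32 and 0.14, ZWINT between −0.20 and 0.85, SKA2 between −0.23 and 0.43 and SKA3 between −0.19 and 0.52.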
